A study of Penicillium oxalicum with 15 samples.

Results

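In the fungus Penicillium oxalicum, 45 of 9512 genes were higher on the carbon source WR than on WB in strain EU2101 and higher again in the mutant MuPOX03016 than in the strain MuKu70, and these 45 genes, called members here, are described across all groups. They were chosen by measured values in FPKM, a read level scaled by gene length and sequencing depth, with an unlisted gene taken as 0. The ratio of group means, each with 1 added, had to be at least 2 for MuPOX03016 over MuKu70 and at least 2 for EU2101 on WR over WB. All 3 MuPOX03016 libraries had to lie above all 3 MuKu70 libraries, the MuPOX03016 mean had to reach 10 FPKM, and estimated counts had to lie within 0.01 of a whole number in those 6 libraries. Of 316 genes past the first ratio, 241 also had groups apart, 189 also reached 10 FPKM, 59 also passed the WR ratio and 52 also had whole counts. From these, 7 of the 9 identifiers that are left out by name were taken away, and of the other 2, POX00063 had overlapping groups and POX08484 had fractional counts.

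The 15 libraries came from mycelium in solid-state culture, grown for 5 days at 28 °C on the carbon sources named here, and each group had 3. All groups also shared 10 g of carbon source, 20 mL of salt solution, drying at 50 °C and 40 mesh. The groups were MuPOX03016 on WR, MuKu70 on WR, and EU2101 on WR, on WB plus AV and on WB. The labels do not spell out WR, WB or AV, and the EU2101 titles write WB_RS where the growth field has WR, and AV where it has WA. They give no other genotype, do not say how MuPOX03016, MuKu70 or EU2101 was made or whether a mutant is a single clone, and do not say whether MuPOX03016 lacks Ku70. Nothing states that replicates were separate cultures, so the error behind each p-value is the scatter of these libraries alone, which may be technical.

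Filamentous fungi such as Penicillium live on plant residues by secreting enzymes that cut cellulose and hemicellulose into sugars that transporters then take up. These genes are typically turned on by breakdown products of the polymer and turned down by easily used sugars, through transcription factors that act on many enzyme genes at once. The Ku70 protein helps to rejoin broken DNA ends, and deleting its gene is a usual way to make targeted gene replacement in fungi more efficient. Activators of the XlnR and ClrB type and the repressor CreA are the best known of the regulators. The identifiers of the files matched 0 of the 9964 genes in the name table used here, so members are given by identifier, without a product, a role, a position or a sequence.

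Estimated counts summed to 6609605 to 7335888 per library in the 6 MuPOX03016 and MuKu70 libraries and to 1782848 to 3414915 in the 9 EU2101 libraries. POX03016 itself was read at 18.5, 19.9 and 17.9 FPKM in MuPOX03016 and at 87.4, 139.0 and 88.9 FPKM in MuKu70, lower in the mutant at -2.33 ± 0.19 on the log2 scale (SE, edgeR adjusted p 0.0012). In the bulk RNA of a mycelium, fewer cells of a kind and less RNA per cell cannot be told apart. WB replicate 1 stood apart from the other WB libraries for the members. It was the highest of the 3 WB libraries for 40 of the 45, at a median of 2.03 times the mean of replicates 2 and 3.

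The ratios that chose the members ran from 2.01 to 5.41 for MuPOX03016 over MuKu70, with a median of 2.95, and 20 members reached 3. Member means ran from 10.05 to 3541 FPKM in MuPOX03016, with a median of 232, and from 4.01 to 1077 FPKM in MuKu70, with a median of 70.8. All of this is description, because the same values chose the members. Over all genes, 11.9% had the 3 MuPOX03016 libraries above the 3 MuKu70 libraries, and of tested genes 10.8% were called higher and 7.55% lower in edgeR (quasi-likelihood test with Benjamini-Hochberg adjustment, threshold 0.05). The rule required all 45 members to have groups apart, so their calls on this contrast, 41 higher and 0 lower, do not test them. The 4 members not called were higher at an unadjusted edgeR p under 0.05, which is no test either.

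**Figure D1:**
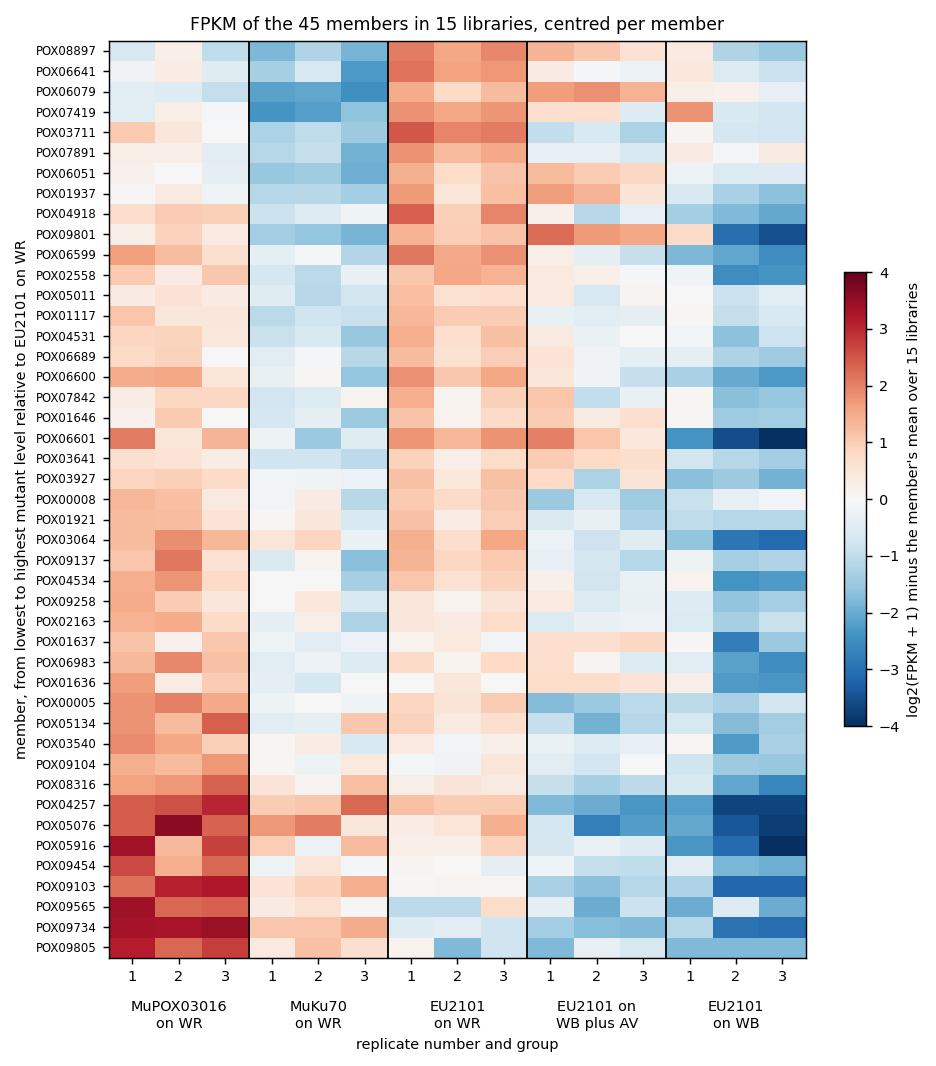
Heat map of log2(FPKM + 1) minus each member's mean over the 15 libraries, with members as rows, from the lowest to the highest MuPOX03016 mean relative to EU2101 on WR, and libraries as columns in 5 groups of 3. MuPOX03016 columns are redder than MuKu70 columns in all 45 rows, as the choice of members fixes, and at the bottom rows they also exceed EU2101 on WR.

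The member with the highest level in MuPOX03016 was POX06599. It stood at 4717, 3556 and 2350.1 FPKM in replicates 1, 2 and 3 of MuPOX03016, against 1149, 1419 and 663 FPKM in MuKu70. The lowest mutant library was 1.66 times the highest MuKu70 library, and replicate 3 was the lowest in each group. POX09137 had 2423, 4816 and 1652 FPKM in MuPOX03016, against 744, 1241 and 349 FPKM in MuKu70. Its replicates spread more widely, and the gap between the groups was 1.33-fold.

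POX09734 was the most even of the high members across replicates, with 2623, 2559 and 2822 FPKM in MuPOX03016, against 547, 555 and 719 FPKM in MuKu70. The highest mutant library was only 1.10 times the lowest, and the gap to MuKu70 was 3.56-fold. POX06051 had 2272, 1992 and 1587 FPKM in MuPOX03016, against 712, 750.4 and 517 FPKM in MuKu70, and POX03711 had 1680.5, 1120.2 and 812 FPKM in MuPOX03016, against 337, 403 and 295 FPKM in MuKu70. POX06079 completed the 6 highest members with 1263, 1191 and 883 FPKM in MuPOX03016, against 386, 403 and 310.0 FPKM in MuKu70. For POX06051, POX03711 and POX06079 replicate 3 was again the lowest of both groups, and the groups lay at least 2.01-fold apart.

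The largest ratios of MuPOX03016 over MuKu70 were those of POX09565, POX09734 and POX09801, at 5.41, 4.39 and 4.37. POX09565 was a low gene, at 40.3, 18.3 and 19.7 FPKM in MuPOX03016, against 3.95, 5.03 and 3.05 FPKM in MuKu70. These values rested on 64, 33 and 34 estimated counts in MuPOX03016 and 8, 9 and 5 in MuKu70. POX09801 had 98.1, 159.6 and 108 FPKM in MuPOX03016, against 31.4, 27.8 and 22.0 FPKM in MuKu70, and every mutant library was at least 3.12 times every MuKu70 library.

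**Figure D2:**
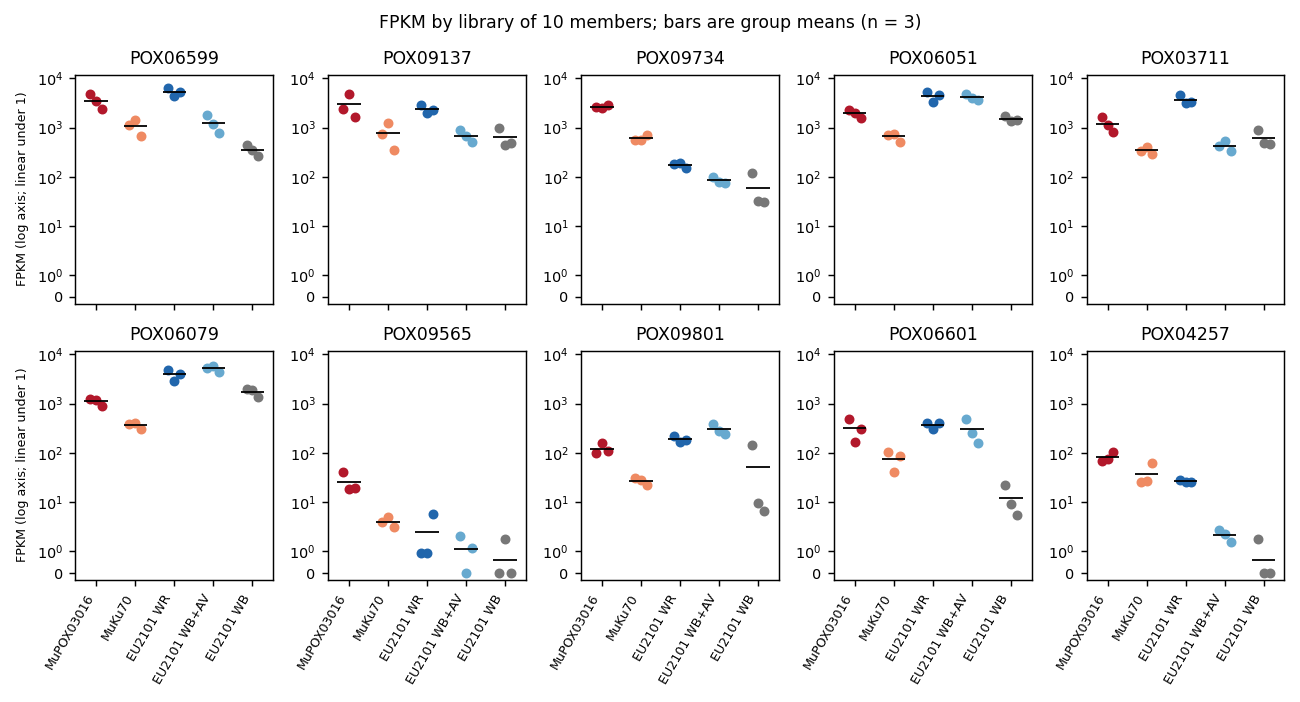
FPKM of 10 members in each library, with groups along the horizontal axis and FPKM on a vertical axis that is logarithmic above 1 and linear below; points are libraries and bars are means of 3. POX09734 is lower in each EU2101 group than in either mutant, while POX06079 is higher in each EU2101 group than in either mutant.

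The members fell into several replicate profiles in the 2 mutant groups. Replicate 3 was the lowest MuKu70 library for 26 of 45 members and the lowest MuPOX03016 library for 24, and the same members were concerned in 23 cases, POX06599, POX06600 and POX09137 among them. A smaller set ran the other way, since replicate 3 was the highest library of both groups for 8 members. POX05134 was one of them, with 140.2, 96.7 and 215 FPKM in MuPOX03016, against 28.8, 30.9 and 85.8 FPKM in MuKu70. A further 6 members were lowest in replicate 2 of both groups, POX02558 and POX09104 of the 8 among them.

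Of the members lowest in replicate 2, POX05916 had 659, 158 and 427 FPKM in MuPOX03016, against 128, 54.0 and 155 FPKM in MuKu70, so that the groups lay only 1.01-fold apart. It had the widest spread between mutant replicates, 4.18-fold. The same replicate number was lowest in both groups for 75.6% of members, and for 38.1% of the 6500 genes with a mean of at least 10 FPKM in both groups. The same number was highest in both groups for 55.6% of members and for 41.8% of those genes. In 13 members the highest library was replicate 1 of MuPOX03016 but replicate 2 of MuKu70. The 2 groups thus shared the lowest replicate number for most members, and the highest less often. The labels do not say what a replicate number stands for. What lies behind the shared pattern was not tested. Between replicates, the median ratio of the highest to the lowest library was 1.70 in MuPOX03016 and 1.90 in MuKu70, with 15 and 18 members above 2. The median coefficient of variation was 29.4% over the members in MuPOX03016 and 30.8% in MuKu70, against 10.9% and 9.64% over all genes with a mean of at least 10 FPKM in the group.

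Just inside the threshold for MuPOX03016 over MuKu70 lay POX07842 at 2.01 and POX01921 at 2.03, and just outside it POX03930 at 1.92 and POX03929 at 1.91. For WR over WB, POX03540 at 2.04 and POX07419 at 2.08 lay just inside, and POX04276 at 1.96 and POX09735 at 1.92 just outside. The choice of single libraries mattered for membership. When each of the 12 libraries in the rule was left out in turn, 26 members were chosen every time and the number of members ran from 41 to 60.

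The 45 members together took 2.99, 3.06 and 2.12% of the FPKM sum in MuPOX03016, against 0.876, 1.03 and 0.655% in MuKu70. In EU2101 they took 4.10, 2.73 and 3.46% on WR, 2.45, 2.15 and 1.84% on WB plus AV and 1.10, 0.744 and 0.735% on WB. The rule chose members that are low in MuKu70 and on WB and high in MuPOX03016 and on WR, so the order of these sums is a description with no test. Means were 2.72 ± 0.53% in MuPOX03016, 0.854 ± 0.190% in MuKu70, and 3.43 ± 0.69%, 2.14 ± 0.31% and 0.860 ± 0.208% in EU2101 on WR, WB plus AV and WB (SD, n = 3). Without WB replicate 1 the WB mean was 0.740%. Of the members in these sums, 6 reached 1000 FPKM in MuPOX03016, 1 in MuKu70 and 6 in EU2101 on WR.

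**Figure D3:**
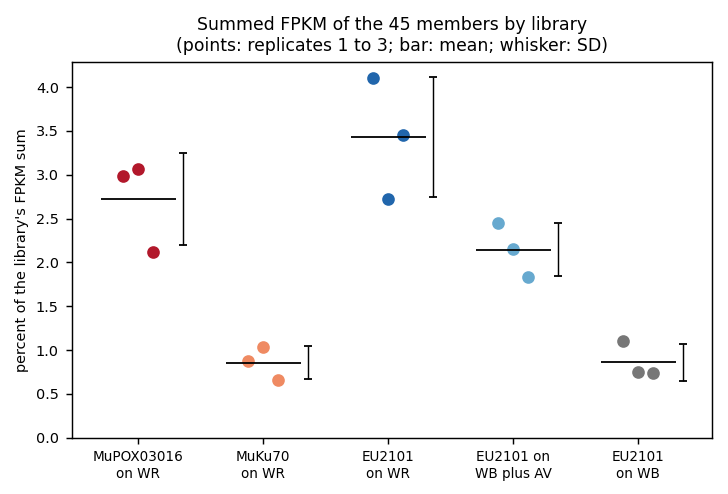
Summed FPKM of the 45 members as a percent of the library's FPKM sum, by group along the horizontal axis; points are libraries, bars are means and whiskers are SD of 3. MuPOX03016 lies at 2.12 to 3.06%, above MuKu70 at 0.655 to 1.03% and overlapping EU2101 on WR at 2.73 to 4.10%.

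In EU2101 the ratios of WR over WB, which also chose the members, ran from 2.04 to 28.3 with a median of 3.63, and 7 members reached 10. Of all genes tested, 8.66% were called higher and 7.61% lower on WR in edgeR. Of the 42 members in the fit, 36 were called higher and 0 lower (41 and 0 at an unadjusted p under 0.05). This ratio chose the members, so their calls do not test them. POX06601 had the largest ratio, with 408, 303 and 413 FPKM on WR, against 22.1, 9.22 and 5.52 FPKM on WB. POX04257 followed at a ratio of 17.0, with 27.6, 25.1 and 25.6 FPKM on WR, against 1.78, 0 and 0 FPKM on WB, where a single count had been read over the 3 libraries. POX06599 had 6529.6, 4298 and 5307 FPKM on WR, against 433, 358 and 264 FPKM on WB. WB replicate 1 was the highest WB library for each of these 3. Without WB replicate 1 the median ratio was 5.25 and 44 members still had a ratio of at least 2. In edgeR 43 of 43 members were then called higher, with 18.7% of all genes higher and 17.6% lower. The libraries left were also used to choose the members, so this too is description.

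The WB plus AV libraries were not used to choose the members, and they gave levels between those on WR and on WB for most. Of the 3 EU2101 groups, WR had the highest mean for 39 members and WB plus AV for 6, and WB had the lowest for 39 and WB plus AV for 6 (41 and 4 without WB replicate 1). The rule put WR above WB for every member, so WB could not be highest and WR could not be lowest. These ranks are therefore a description. The WB libraries did enter the choice, so a WB value that was low by chance also moves the difference of WB plus AV from WB upward. Of 42 members tested, 6 were called higher on WB plus AV than on WB, against 0.681% of all genes tested, and 0 were lower in edgeR. At an unadjusted p under 0.05 there were 23 higher and 2 lower in edgeR, and DESeq2 called 20 higher and 0 lower, among 256 higher and 291 lower over all genes. The median log2 fold change was 1.15 over the members and 0.01 over all genes tested, and 36 of 42 values were positive. Without WB replicate 1 these medians were 1.69 and 0.02, and 39 of 43 values were positive. By levels alone, 20 of 45 members had all 3 WB plus AV libraries above all 3 WB libraries, against 5.65% of all detected genes, and 1 member had all 3 below, against 9.14%. With WB replicates 2 and 3 alone, 36 members lay above, against 27.8% of all detected genes, and 2 below, against 16.1%.

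POX06601 rose most, with 486, 257 and 159 FPKM on WB plus AV, against 22.1, 9.22 and 5.52 FPKM on WB, a log2 fold change of 4.62 ± 0.53 (SE, edgeR adjusted p 0.011). The groups did not overlap, and the lowest WB plus AV library was above every WB library. POX05916 rose to 39.2, 53.2 and 44.5 FPKM on WB plus AV, against 11.9, 6.62 and 3.04 FPKM on WB, by 2.65 ± 0.38 (SE, edgeR adjusted p 0.02), and POX01937 to 1251, 1009.7 and 552 FPKM, against 254, 156 and 125 FPKM, by 2.39 ± 0.42 (SE, edgeR adjusted p 0.029) on the same scale. The other members called higher were POX03064, POX03641 and POX06599, at log2 fold changes of 1.93, 1.88 and 1.80.

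These calls depended on the libraries and on the fit. Same-numbered libraries of WB plus AV and WB moved together. A replicate block in the fit gave 20 members called, all higher and with the same 6 among them, and 510 genes in all, against 95 without the block. Without WB replicate 1 there were 27 members called, 26 of them higher, among 1769 genes called in all (907 higher, 862 lower). Without WB replicate 2 there were 0 in edgeR (22 at an unadjusted p under 0.05), among 4 genes in all. Leaving out WB replicate 3 gave 1, as did leaving out replicate 1 or 3 of WB plus AV. POX06601 was lost without WB replicate 2, and POX05916 and POX01937 were lost without that library, WB replicate 3, or replicate 1 or 3 of WB plus AV. POX01937 was also lost when replicate 2 of WB plus AV was omitted. All 3 were lost with only the 2 groups in the fit, which left 0 members called in edgeR (22 at an unadjusted p under 0.05).

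Some members did not follow this course. POX03711 had 414, 531 and 341 FPKM on WB plus AV, against 885, 496 and 474 FPKM on WB, and its log2 fold change of -0.52 did not pass the test. The 5 others with a mean lower on WB plus AV than on WB were POX00005, POX00008, POX05134, POX07419 and POX07891. Their log2 fold changes lay between -0.80 and -0.09, and none was called. For POX05134 and POX07419 this order rested on WB replicate 1, at 25.2 and 399.8 FPKM. The other WB libraries of POX07419 lay below every WB plus AV library. Those of POX05134 lay below its WB plus AV mean of 16.1 FPKM. Without WB replicate 1, WB plus AV had the lowest mean of the EU2101 groups for 4 members. For POX00008 the 2 groups overlapped, with 66.2, 119.5 and 69.3 FPKM on WB plus AV, against 100.0, 149.9 and 176 FPKM on WB. For POX07891 they did not, with 222.3, 222.0 and 178.5 FPKM on WB plus AV, against 352.6, 267.7 and 355.8 FPKM on WB. These 2 members were lower at an unadjusted edgeR p of 0.046 for POX00008 and 0.019 for POX07891.

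Set against WB plus AV, WR gave higher levels for 17 of 42 members tested, against 3.24% of all genes tested, and lower levels for 0 in edgeR. At an unadjusted p under 0.05, 26 were higher and 0 lower in edgeR, and DESeq2 called 21 higher and 0 lower, among 394 higher and 273 lower over all genes. The WR libraries entered the choice of members, so a WR value high by chance moves this difference upward. The median log2 fold change was 1.14 over the members and -0.01 over all genes, and 37 of 42 values were positive. All 3 WR libraries lay above all 3 WB plus AV libraries for 28 of 45 members, against 12.6% of all detected genes, and below them for 3, against 14.6%.

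The largest rise was that of POX04257, with 27.6, 25.1 and 25.6 FPKM on WR, against 2.74, 2.24 and 1.56 FPKM on WB plus AV, a log2 fold change of 3.57 ± 0.49 (SE, edgeR adjusted p 0.0031). It was read at 23, 21 and 21 counts on WR and at 2, 1 and 1 on WB plus AV, so its size is imprecise. It passed the filter on low counts only through WR, a group that the rule required to be high. The call of POX04257 is therefore a description and no test. POX03711 had 4568, 3153 and 3351 FPKM on WR, against 414, 531 and 341 FPKM on WB plus AV, a log2 fold change of 3.16 ± 0.33 (SE, edgeR adjusted p 0.0013), and the lowest WR library stood far above the highest on WB plus AV. POX05076 had 48.1, 55.3 and 106 FPKM on WR, against 23.6, 5.09 and 7.45 FPKM on WB plus AV, by 2.57 ± 0.55 (SE, edgeR adjusted p 0.027) on the log2 scale. Its groups did not overlap, but WB plus AV replicate 1 stood above the other 2 libraries of its group, and without it the log2 fold change was 3.49.

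The calls of POX04257 and POX03711 held whichever of the 6 libraries was omitted, while POX05076 was lost without replicate 2 or 3 of WB plus AV or any of the WR libraries. The members called ran from 8 to 15 as libraries were left out, with 8 when replicate 3 of WB plus AV was omitted, 10 when it was WR replicate 1, and 11 when it was WR replicate 3 or replicate 2 of WB plus AV. The replicate numbers pair these groups too, and the fit with the replicate block called 873 genes, against 411 without it, and 23 members. At the other end stood members as high on WB plus AV as on WR or higher. POX06079 had 4761, 2949 and 4091 FPKM on WR, against 5399, 5953 and 4414 FPKM on WB plus AV, and POX09801 had 221, 166 and 183 FPKM on WR, against 394, 274 and 246 FPKM on WB plus AV. Neither difference passed the test, at log2 fold changes of -0.36 and -0.62.

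**Figure D4:**
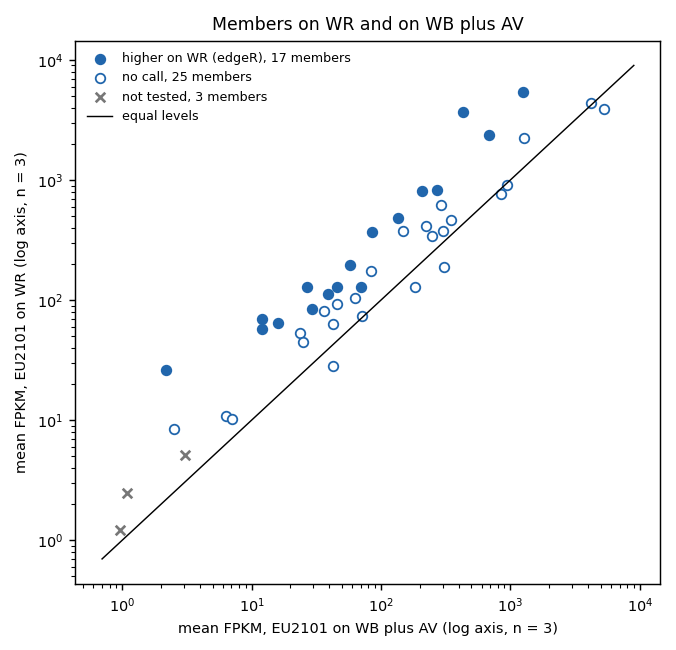
Mean FPKM of each member in EU2101 on WR (vertical, log axis) against WB plus AV (horizontal, log axis), n = 3 per group; filled points were called higher on WR in edgeR, open points were not called, crosses were not tested and the line marks equal levels. The 17 filled points lie above the line at 2.18 to 1255 FPKM on WB plus AV, and 6 members lie below it.

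Of the 42 members, 2 (POX03064 and POX06599) passed both comparisons, WB plus AV over WB and WR over WB plus AV, while 4 passed the first alone, 15 the second alone and 21 neither. Of all 8079 genes tested these classes held 0.087, 0.359, 3.08 and 94.2%, the last counting genes called in neither direction of either comparison. The 2 comparisons share the WB plus AV libraries, so these counts are not independent. The 17 members called for WR over WB plus AV were POX00005, POX00008, POX01117, POX01921, POX02163, POX03064, POX03711, POX04257, POX04918, POX05076, POX05134, POX06599, POX06600, POX06641, POX07891, POX08316 and POX09137. POX09454, POX09565 and POX09805 did not pass the filter on low counts in EU2101, with POX09805 listed at 0 in each WB library.

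Between strains on WR, most members were lower in MuKu70 than in EU2101. Of 43 tested, 31 were lower and 3 higher, against 31.3% and 31.5% of all genes tested. All 3 MuKu70 libraries lay below all 3 EU2101 libraries for 28 members and above them for 3, against 35.5% and 25% of all detected genes. The median log2 fold change was -1.37 over the members and -0.01 over all genes. Of all calls 50.1% were higher in edgeR and 40.3% in limma on log2(FPKM + 1), where 27 members were lower and 3 higher. MuKu70 means had a median of 41.0% of the EU2101 mean on WR, from 7.29 to 392%. Both groups entered the choice, MuKu70 as the lower group of 1 ratio and EU2101 on WR as the higher group of the other, which moves this difference downward. The files of the strains also differ in how they were made, and strain and file cannot be told apart here.

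POX07419 was lowest relative to EU2101, with 21.4, 23.9 and 37.2 FPKM in MuKu70, against 406, 334 and 391 FPKM in EU2101, a log2 fold change of -4.05 ± 0.20 (SE, edgeR adjusted p 1.7e-06). POX08897 had 175, 270.0 and 169 FPKM in MuKu70, against 2549, 1786 and 2336 FPKM in EU2101, a log2 fold change of -3.50 ± 0.25 (SE, edgeR adjusted p 9.4e-06). POX06079 had 386, 403 and 310.0 FPKM in MuKu70, against 4761, 2949 and 4091 FPKM in EU2101, a log2 fold change of -3.46 ± 0.25 (SE, edgeR adjusted p 9.7e-06). None of these 3 overlapped between strains, and each passed in all 12 alternatives. The 3 members called higher in MuKu70 were POX09734, at 547, 555 and 719 FPKM in MuKu70 and 179, 193 and 148 FPKM in EU2101, POX09103 and POX08316. Their log2 fold changes were 3.01 ± 0.17 (SE, edgeR adjusted p 3.1e-06), 2.09 ± 0.26 (SE, edgeR adjusted p 0.00022) and 2.11 ± 0.18 (SE, edgeR adjusted p 2.8e-05). In limma on log2(FPKM + 1) POX09734 was at 1.80 and POX09103 at 0.89, both still called, and the effective length of POX09734 was 806 bp in the EU2101 files and 1799 bp in the mutant files. POX09103 had 11.97, 15.9 and 23.2 FPKM in MuKu70, against 8.19, 8.69 and 8.31 FPKM in EU2101, and was not measured for length in the EU2101 files. POX08316 had 142, 106 and 229 FPKM in MuKu70, against 118, 142 and 126 FPKM in EU2101, and these overlap. On the FPKM scale its call was lost (limma adjusted p 0.479 on log2(FPKM + 1) and 0.471 on log2(FPKM + 5)), and its effective length was 321 bp in the EU2101 files and 938 bp in the mutant files.

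Set against EU2101 on WR, MuPOX03016 was higher for 18 of 45 members, lower for 8 and not called for 19. Among the 18, POX09565 and POX09805 passed the filter on low counts only through MuPOX03016. The rule required that group to be high, so the calls of POX09565 and POX09805 do not test them. Over all genes tested 30.5% were higher and 31.8% lower. All 3 MuPOX03016 libraries lay above all 3 EU2101 libraries for 15 members and below them for 10, against 19.2% and 41.1% of all detected genes. Both groups were high groups of the rule. The median log2 fold change was 0.22 over the members and -0.05 over all genes tested, and the MuPOX03016 mean had a median of 104% of the EU2101 mean, from 21.7 to 1807%. On the FPKM scale the median of all genes lay at -0.22 in limma on log2(FPKM + 1), and that of the members at 0.00, with 15 members higher and 9 lower. That scale also changed the balance of all calls, of which 48.9% were higher in edgeR and 32.0% in limma.

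The 3 largest rises over EU2101 were those of POX09734, POX09103 and POX09805. POX09734 had 2623, 2559 and 2822 FPKM in MuPOX03016, against 179, 193 and 148 FPKM in EU2101 on WR, and the log2 fold change of the counts was 5.25 ± 0.21 (SE, edgeR adjusted p 1.3e-06). The part of its length difference between files in this value was not tested. In limma on log2(FPKM + 1) POX09734 was at 3.94 and POX09103 at 2.76. On the FPKM scale the POX09734 MuPOX03016 mean was 1538% of the EU2101 mean. POX09103 had 39.6, 75.8 and 80.8 FPKM in MuPOX03016, against 8.19, 8.69 and 8.31 FPKM in EU2101, a log2 fold change of 4.05 ± 0.27 (SE, edgeR adjusted p 9.5e-06). POX09805 had 28.9, 15.5 and 22.0 FPKM in MuPOX03016, against 2.75, 0 and 0.93 FPKM in EU2101, a log2 fold change of 3.86 ± 0.63 (SE, edgeR adjusted p 0.0011) that rests on 3, 0 and 1 counts in EU2101. It passed the filter on low counts only through MuPOX03016, so its p-value is a description and no test. Without WR replicate 1 of EU2101 the POX09805 value was 5.17.

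The members furthest below EU2101 were POX08897, POX07419 and POX06641. POX08897 had 394, 746 and 307 FPKM in MuPOX03016, against 2549, 1786 and 2336 FPKM in EU2101, a log2 fold change of -2.16 ± 0.35 (SE, edgeR adjusted p 0.0011). POX07419 had 84.8, 137 and 110.3 FPKM in MuPOX03016, against 406, 334 and 391 FPKM in EU2101, by -1.95 ± 0.20 (SE, edgeR adjusted p 7.5e-05). POX06641 had 119.9, 164 and 95.7 FPKM in MuPOX03016, against 599, 406 and 442 FPKM in EU2101, by -1.85 ± 0.25 (SE, edgeR adjusted p 0.00038). In each of these 3 the MuPOX03016 libraries lay below every EU2101 library on WR, although they lay above every MuKu70 library. The 6 members named for MuPOX03016 against EU2101 passed in all 12 alternatives, which for POX09805 is no test.

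**Figure D5:**
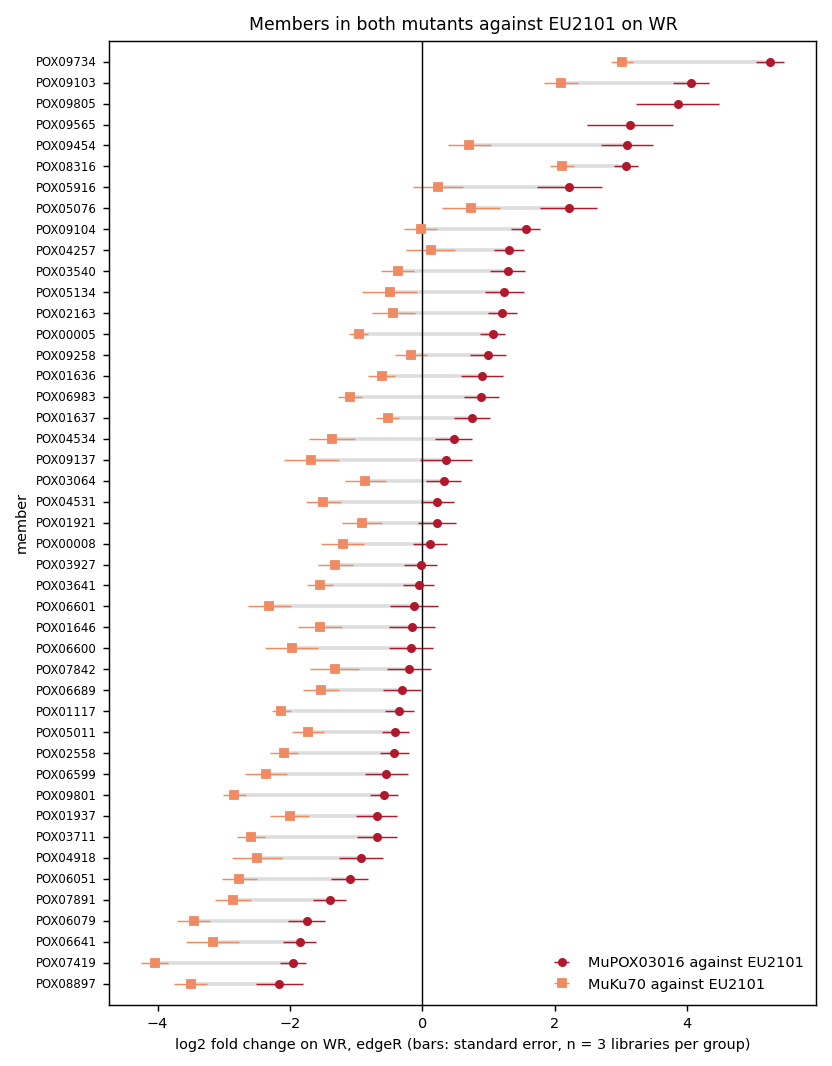
Log2 fold change of counts, not corrected for length, against EU2101 on WR for each member, ordered by MuPOX03016. Circles are MuPOX03016, squares are MuKu70 and bars are standard errors from edgeR with 3 libraries per group. Circles run from -2.16 for POX08897 to 5.25 for POX09734 and lie right of the squares for the 43 members with both, as the choice of members fixes.

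Taken by both strain comparisons, which share the EU2101 libraries, the members fall into 6 classes. The rule put MuPOX03016 above MuKu70, which limits the classes that can occur, so their counts are a description. They rest on counts with no correction for length, and 7 members had a longer effective length in the mutant files. Of these, POX03711 was not called in MuPOX03016, but its mean FPKM was 32.6% of the EU2101 mean. POX09258 was called higher, but its FPKM overlapped, with 363 in MuPOX03016 replicate 3 and 377 in EU2101 replicate 3 on WR. How length bears on the classes was not tested. The largest class was lower in MuKu70 and not called in MuPOX03016, with 19 members, POX00008, POX01117, POX01646, POX01921, POX01937, POX02558, POX03064, POX03641, POX03711, POX03927, POX04531, POX04534, POX05011, POX06599, POX06600, POX06601, POX06689, POX07842 and POX09137. In 8 members, POX04918, POX06051, POX06079, POX06641, POX07419, POX07891, POX08897 and POX09801, both strains were lower than EU2101. In 4 members, POX00005, POX01636, POX01637 and POX06983, MuKu70 was lower and MuPOX03016 higher. In 9 members, POX02163, POX03540, POX04257, POX05076, POX05134, POX05916, POX09104, POX09258 and POX09454, MuKu70 was not called and MuPOX03016 was higher. Of the 8240 genes tested in both comparisons, 5.63% were lower in MuKu70 and not called in MuPOX03016, 25.6% lower in both, 0.255% lower then higher, and 4.43% not called then higher. POX08316, POX09103 and POX09734 were higher in both, as were 25.7% of those genes, and POX09565 and POX09805 were higher in MuPOX03016 and not tested in MuKu70. A missed threshold does not show that levels were equal, as a member of the largest class shows: POX06599 had 4717, 3556 and 2350.1 FPKM in MuPOX03016, against 6529.6, 4298 and 5307 FPKM in EU2101, at -0.55 ± 0.32 (SE, edgeR adjusted p 0.18) on the log2 scale.

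The gene model behind the values was checked by effective length, computed as the count divided by FPKM and the library total. Of 41 members with enough reads, 34 (82.9%) had the same length in the EU2101 and mutant files within 20 bp of a common shift of -71.3 bp, against 71.2% of 7290 genes, and 7 were longer in the mutant files. The 7 were POX01937, POX02163, POX03711, POX04531, POX08316, POX09258 and POX09734. Over the 34 alone, 28 were lower and 0 higher in MuKu70 than in EU2101, and 10 were higher and 8 lower in MuPOX03016. Of 5192 genes tested with the same length in both sets, 34.6% were lower and 18.4% higher in MuKu70, and 17.5% higher and 35.0% lower in MuPOX03016. In the EU2101 files the 41 members measured ran from 244 to 2458 bp with a median of 1238 bp, and all genes measured had a median of 1255 bp.

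A panel of 12 identifiers, given as cellulase, beta-glucosidase and xylanase genes of this species from recall and not from the files, served as a pathway list. Of its 12, 9 are left out of the members by name, and they meet both ratios. The 9 took 1.63 ± 0.41% of the FPKM sum in MuPOX03016, against 0.709 ± 0.166% in MuKu70 (SD, n = 3), and 5.71 ± 1.17% in EU2101 on WR. The order of MuPOX03016 and MuKu70 in these sums follows from the ratios that the 9 meet, so it is a description with no test. Of the 12, 11 were lower and 1 higher in MuKu70 than in EU2101, against 31.3% and 31.5% of all genes tested. The median log2 fold change was -2.52, and -2.62 over the 9, which were all lower. In MuPOX03016 against EU2101, 9 of the 12 were lower, 1 was higher and 2 were not called, with a median of -1.36, where the members had 0.22. Over all genes tested 31.8% were lower and 30.5% higher. Of the 9 left out by name, 8 were lower and 0 higher, with a median of -1.43. On WB plus AV against WB 2 of the 12 were higher, against 0.681% of all genes tested. On WR against WB plus AV 3 of the 12 were higher, against 3.24%. The medians were 1.62 and 0.33, where the members had 1.15 and 1.14. The 9 that meet both ratios had medians of 1.62 and 1.32, with all 9 values positive in each comparison.

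Several members carried consecutive identifiers. POX06599, POX06600 and POX06601 formed a run of 3, and POX01636 with POX01637 and POX09103 with POX09104 formed pairs. In all, 7 members had a member at the next number and 14 had one within 10 numbers. No source used here says that numbers follow the order of genes along the genome. The run of 3 was not uniform. POX06600 had 812, 846 and 403 FPKM in MuPOX03016, against 234, 305 and 99.1 FPKM in MuKu70, and was lowest in replicate 3 of both, as POX06599 was. POX06601 had 495, 169 and 307 FPKM in MuPOX03016, against 102, 41.7 and 85.6 FPKM in MuKu70, and was lowest in replicate 2 of both.

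POX01636 had 361, 139 and 229.8 FPKM in MuPOX03016, against 89.1, 69.1 and 113 FPKM in MuKu70. Its neighbour POX01637 had 57.5, 28.8 and 54.9 FPKM in MuPOX03016, against 22.3, 18.6 and 21.2 FPKM in MuKu70. Both were lowest in replicate 2 of MuPOX03016 and of MuKu70. Of the 77 non-member identifiers next to a member by number, 9 (11.7%) had a ratio of at least 2 in MuPOX03016 over MuKu70 with groups apart, against 2.07% of all 9467 non-members. A ratio of at least 2 for WR over WB, with no condition on groups apart, was found in 11.7% of neighbours and 7.90% of non-members. Among the 9 was POX09566, next to POX09565, at a mean of 45.2 FPKM in MuPOX03016 and 9.88 FPKM in MuKu70 but 0.443 FPKM in EU2101 on WR, and POX02559, next to POX02558, which missed membership by its mean of 9.57 FPKM in MuPOX03016. Both were chosen for mention after their values were seen.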

How the data were processed

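The authors deposited, per the file headers, an estimated count and an FPKM value per gene and library; estimated counts are not normalized, FPKM is scaled to length and depth, and an unlisted gene was taken as 0. The submitters' processing notes list RSEM 1.2.12, Bowtie2 2.1.0, BWA 0.7.10-r789 and DESeq2 but no roles, and the build is not given in the sources used here. Of listed counts, 0.156 to 0.302% were fractional in the 9 EU2101 files, and 13.2 to 14.1% in the 6 others. The members, lists and the rule for named genes were chosen with earlier results of these data known. Values per library are given for the 6 members highest in MuPOX03016, the 3 largest ratios of each kind and, per tested comparison, the 3 largest called changes in each direction; a few others serve as examples.

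Rounded counts went into edgeR 4.0.16 (R 4.3.3) with TMM factors, genes kept by filterByExpr at a count minimum of 10, the quasi-likelihood test, and Benjamini-Hochberg adjustment over all genes tested at a threshold of 0.05. Comparisons within EU2101 were fitted over its 9 libraries and those between strains over 6. The step was tested on simulated data. The simulated libraries were independent with a fixed scatter, so they did not test the replicate pairing given below. Replicate pairs all differed by more than sampling noise, at 7.96 to 56.5 chi-square units per degree of freedom. Replicate numbers paired the libraries of WB plus AV with those of WB (r of deviations 0.416 to 0.572) and of WR with WB plus AV (0.215 to 0.413), read from the data. Alternatives were DESeq2 1.42.0, limma 3.58.1 on log2(FPKM + 1) and log2(FPKM + 5) for genes with a mean FPKM of at least 1, median-ratio factors, no filter, a replicate block, the 2 groups alone and each library left out. The keyword lists of products could not be formed, since no identifier matched a name.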

Additional observations from a re-analysis of the deposited data

How the results depend on the processing

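The members called higher or lower in MuKu70 or MuPOX03016 against EU2101 changed little, with 30 to 34 and 22 to 28 called over the 12 alternatives of each, against 34 and 26. Between WB plus AV and WB the count of members called was 6, and became 20 in DESeq2, 20 with the replicate block, 0 with only the 2 groups in the fit (22 at an unadjusted p under 0.05) and 0 to 27 with a library left out. Over all genes the same comparison gave 95 calls, and 547, 510, 3 and 4 to 1769 in these settings, of which 57.9% were higher in the fit reported, 46.6% (54 higher, 62 lower) in limma on log2(FPKM + 1) and 46.7% with the block. Between WR and WB plus AV the members called ran from 8 to 15 with a library left out, against 17, and calls over all genes were 667 in DESeq2, 873 with the replicate block, 733 with only the 2 groups in the fit and 155 to 393 with a library left out, against 411. The block changed no call of the members named for these comparisons. Between each mutant and EU2101 the numbers do not pair the libraries (r of deviations 0.031 to 0.141 for MuKu70 with EU2101, -0.074 to 0.011 for MuPOX03016 with EU2101, where 4 and 2 of 6 libraries correlated best with their own number), and the block gave 32 and 23 members called. Between MuPOX03016 and MuKu70, the contrast that chose the members, r was 0.035 to 0.453. The rule itself gave 35 to 54 members under 7 other settings, with 35 under a pseudocount of 5 and 54 after median-ratio scaling, which kept all 45. The causes were not tested. The 3 largest called changes in each direction of each comparison kept their sign in every alternative that gave a value; other members were not followed across alternatives. Between carbon sources POX09454, POX09565 and POX09805 were left out by the filter on low counts, and without the filter all 45 members were in the fit, with 6 and 17 called. Values that rest on WB were recomputed without WB replicate 1, a choice made after seeing the data.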
